A study of Mus musculus with 6 samples.

Results

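Mouse embryonic endothelial eEnd2 cells held 31 genes whose reads were nearly absent from every β1-K794Q-GFP culture and present in every β1-WT-GFP culture. They were chosen from the deposited counts as the rows with at most 5 reads in each of the 3 β1-K794Q-GFP cultures and at least 10 in each of the 3 β1-WT-GFP cultures, and they made up 31 of the 23420 genes of the table. The values that chose them are those of the comparison itself, so the difference between the groups is described here without a test. The opposite choice, at most 5 reads in each β1-WT-GFP culture and at least 10 in each β1-K794Q-GFP culture, gave 36 genes.

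The eEnd2 cells are an endothelial line of mouse embryos. They were stably transfected with a human Integrin-β1 chimera carrying GFP in its extracellular part, either the wildtype (β1-WT-GFP) or the K794Q form, in which glutamine replaces a lysine of the cytoplasmic tail as a mimic of acetylation. Both forms were driven by a short human β-actin promoter, were added to cells that keep their own mouse Itgb1, and were carried by cells sorted for GFP and grown to confluence in DMEM with fetal calf serum. The 3 cultures of each form, A, B and C, are cultures of sorted cells rather than 3 separate transfections, and whether a culture came from the low or the high GFP sort is not stated. They are called wildtype and mutant cultures below, and values of a group are listed in the order A, B and C. Differences between the groups therefore cannot be told apart from differences between the sorted populations, and p-values below measure the spread between cultures. In bulk RNA, fewer cells expressing a gene and less RNA per cell cannot be told apart either.

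An endothelial cell is recognised by adhesion molecules and receptors such as VE-cadherin, PECAM1 and the VEGF and angiopoietin receptors. Many other genes, including mesenchymal transcription factors and neuronal cytoskeletal proteins, are usually kept at low levels or off in it. A gene that is off can stay off through many cell divisions, since repressive chromatin and DNA methylation at its promoter can be copied when a cell divides.

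All 28 endothelial marker genes of a set list were tested. None was at 0 in every culture, and 1, Podxl, was higher (log2 fold change 1.00, SE 0.41, edgeR adjusted p = 0.48). Cdh5, encoding VE-cadherin, had 1340, 1560 and 2220 normalised counts (CPM, scaled by TMM) in the wildtype cultures and 1410, 3990 and 1290 CPM in the mutant cultures. Pecam1 lay between 1780 and 2810 CPM in the 6 cultures. These 2 transcripts were thus abundant in every culture, while other endothelial markers were uneven. Cldn5, encoding the tight junction protein claudin-5, had 267, 252 and 4.73 CPM in the wildtype cultures and 17.5, 0 and 24.2 CPM in the mutant cultures (log2 fold change -3.64, SE 1.81, edgeR adjusted p = 0.595). In mutant culture B, the endothelial transcription factor gene Sox17 was at 0.295 CPM and Clec14a at 6.99 CPM, against 97.5 to 205 CPM and 104 to 357 CPM in mutant cultures A and C. The part of this unevenness in the counts of the silent genes was not tested. The totals ranged from 9589826 to 15287191 reads per culture, the largest being wildtype culture C. At these depths 5 reads were 0.429 to 0.492 CPM in mutant cultures, and 10 reads were 0.695 to 0.999 CPM in wildtype cultures.

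The 31 genes together had 4500, 4238 and 5411 reads in the wildtype cultures and 30, 28 and 37 reads in the mutant cultures. Prrx1 alone made up 46.6%, 45.7% and 15% of those wildtype reads. No read was found for 18, 17 and 14 of the genes in the mutant cultures. The genes without a read in any of these 3 cultures were Klhl13, Hmga2-ps1, Prrg3, Stambpl1, Gstm4, Tmem255a, Ccdc166 and Hgf, 8 of 31. A count of 0 allows up to 3 reads per culture, which was 0.258 to 0.295 CPM, and such limits cover counting error only. The summed count over the 3 mutant cultures had a median of 3 reads and reached 13 reads for Dusp2.

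**Figure D1:**
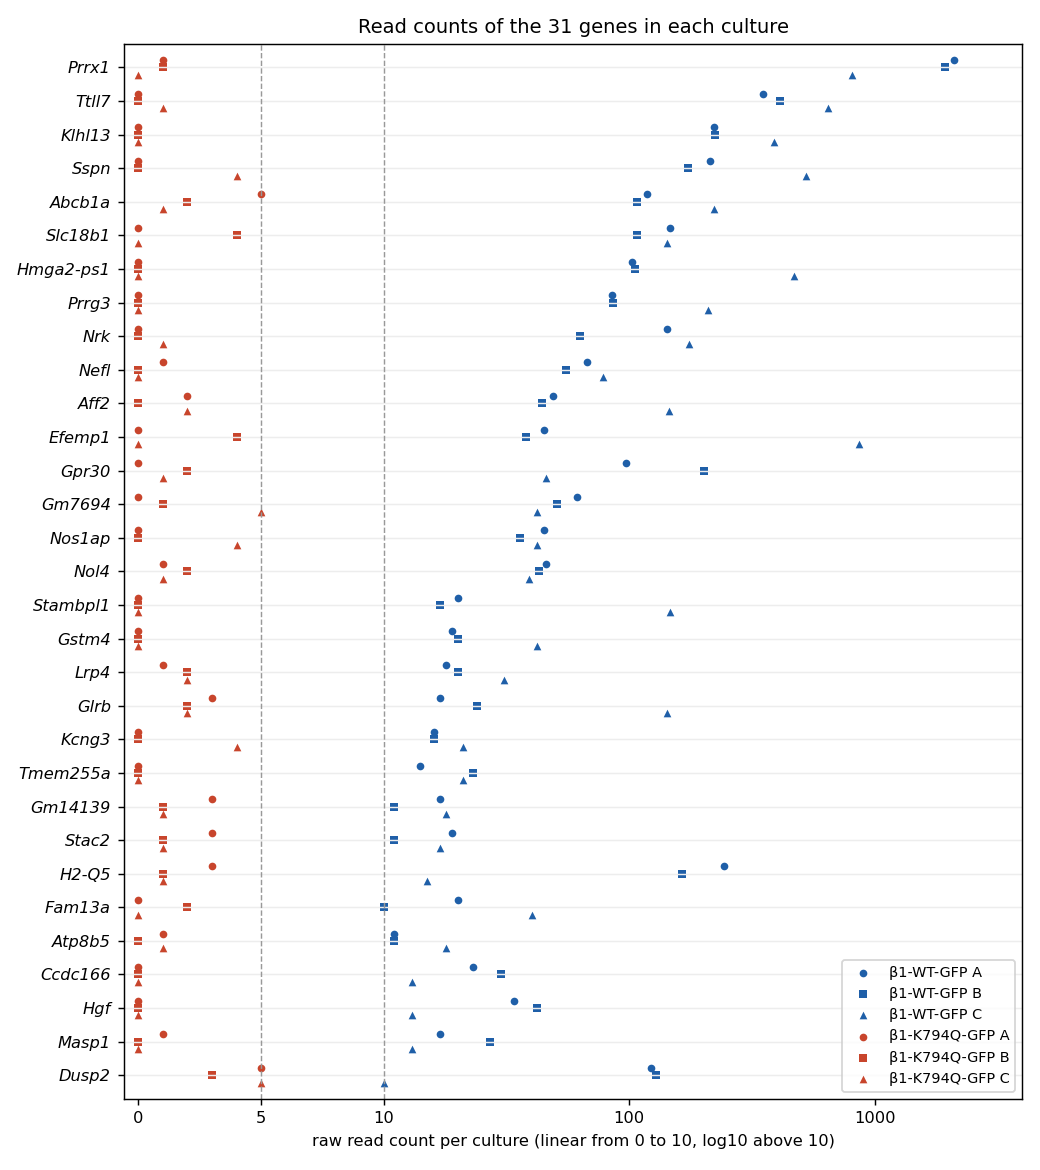
Raw reads of each of the 31 genes (rows, ordered by their lowest β1-WT-GFP level) in 3 β1-WT-GFP cultures (blue) and 3 β1-K794Q-GFP cultures (red). The horizontal axis is linear from 0 to 10 reads and logarithmic above 10, and the dashed lines at 5 and 10 reads are the limits that chose the genes, so the gap between the colours is set by the choice and only the distance beyond the lines differs between genes.

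Of the 31 genes, 27 passed the filter on low counts, and all 27 were past a fold of 2 and an unadjusted p of 0.05 in edgeR's quasi-likelihood test, against 1.71% of all 11608 tested genes in that direction. At a Benjamini-Hochberg adjusted p of 0.05 the fit called 11 genes lower (0.0948% of those tested), 7 of which were among the 31. Nothing can be read from these counts, since the comparison chose the genes. Ccdc166, Hgf, Masp1 and Dusp2 did not pass the filter. Other genes are called lower or higher below where they passed the same 2 thresholds, which 1.71% of all tested genes did as lower and 3.48% as higher. Such a gene is past the adjusted threshold only where its adjusted p is at most 0.05.

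Prrx1, encoding a paired-related homeodomain factor of limb and craniofacial mesenchyme, had the most reads of the 31 genes over the wildtype cultures together. It had 2097, 1936 and 812 reads in the wildtype cultures and 1, 1 and 0 reads in the mutant cultures. Its mean level in β1-WT-GFP cells was 144 ± 76.3 CPM (SD, n = 3). The ratio of the summed reads, scaled by library, was 2180-fold (95% counting interval 602 to 18000), the widest gap of the genes with a read in both groups. Prrx1 lies on the minus strand at chr1:163245119-163313710 (GRCm38), and its paralogue Prrx2 had no read in any culture. Of 28 other tested homeobox genes, 1 was lower (Tgif2, log2 fold change -2.01, SE 0.79, edgeR adjusted p = 0.453) and 2, Hlx and Rhox5, were higher.

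Ttll7, encoding a tubulin polyglutamylase, had 351, 413 and 645 reads in the wildtype cultures, and it lies at chr3:146852367-146984009. The mutant cultures held a single read of it, in culture C. Its wildtype level was 38.9 ± 7.37 CPM (SD, n = 3), 1270-fold above the other group (95% counting interval 227 to 50000). None of the 6 other tested Ttll enzymes was past both thresholds, and their log2 fold changes ran from -0.35 to 0.28. Of 15 other tested genes of tubulin modification, none was lower and 1, the tubulin tyrosine ligase Ttl, was higher (log2 fold change 1.14, SE 0.24, edgeR adjusted p = 0.158).

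Klhl13, encoding a Kelch adaptor that brings substrates to Cullin 3 ubiquitin ligases, had 222, 223 and 389 reads in the wildtype cultures and none in the mutant cultures. Its level of 22.9 ± 3.87 CPM (SD, n = 3) was at least 81.7-fold higher than the floor of 3 reads per culture. It lies at chrX:23219271-23365082 and was the most abundant of the 8 genes without a read in the mutant cultures. Among 22 other tested Klhl genes none was past both thresholds (log2 fold changes from -1.40 to 2.12), and among 30 other tested genes of the Kelch and Cullin 3 ligases 1 was, Cand1, which was higher (log2 fold change 1.11, SE 0.32, edgeR adjusted p = 0.286).

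The 250 bases before the RefSeq start of a gene (GRCm38.p6) are shown for these 3 genes, which had the highest CPM in their lowest wildtype culture, and for Kcng3, whose window held the most CG dinucleotides of the silent genes with a sequence, because CG dinucleotides are where vertebrate DNA is methylated. Letters are 5′ to 3′ on the gene's strand, and capitals mark each CG. The windows are chr1:163313651-163313900 on the minus strand for Prrx1, chr3:146852117-146852366 on the plus strand for Ttll7, chrX:23365083-23365332 on the minus strand for Klhl13 and chr17:83631896-83632145 on the minus strand for Kcng3.
Prrx1: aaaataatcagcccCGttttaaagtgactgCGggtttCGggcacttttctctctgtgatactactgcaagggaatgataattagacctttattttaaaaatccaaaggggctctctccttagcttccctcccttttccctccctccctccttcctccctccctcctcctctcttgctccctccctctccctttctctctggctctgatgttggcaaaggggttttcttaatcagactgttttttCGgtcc
Ttll7: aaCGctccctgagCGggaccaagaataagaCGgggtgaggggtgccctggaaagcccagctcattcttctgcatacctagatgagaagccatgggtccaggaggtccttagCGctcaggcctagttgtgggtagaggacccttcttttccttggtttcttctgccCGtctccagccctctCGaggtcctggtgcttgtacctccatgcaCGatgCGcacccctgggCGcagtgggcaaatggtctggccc
Klhl13: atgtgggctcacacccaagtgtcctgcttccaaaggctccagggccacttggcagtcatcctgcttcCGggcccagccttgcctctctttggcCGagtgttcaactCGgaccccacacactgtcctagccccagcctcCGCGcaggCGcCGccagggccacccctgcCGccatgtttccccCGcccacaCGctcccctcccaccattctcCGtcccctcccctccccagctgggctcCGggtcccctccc
Kcng3: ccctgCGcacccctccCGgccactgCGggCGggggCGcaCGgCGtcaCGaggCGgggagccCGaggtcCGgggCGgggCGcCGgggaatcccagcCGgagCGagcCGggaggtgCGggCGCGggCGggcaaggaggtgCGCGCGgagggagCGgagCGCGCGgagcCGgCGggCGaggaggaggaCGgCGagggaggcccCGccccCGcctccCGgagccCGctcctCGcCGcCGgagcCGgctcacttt
The Prrx1 window held 4 CG dinucleotides, that of Ttll7 9 and that of Klhl13 12, while that of Kcng3 held 41. The median over the windows of 8690 genes with at least 10 reads in each wildtype culture was 17, and over the 23 silent genes with a sequence it was 9, so the window of Kcng3 is an extreme of the list and not typical of it. These 23 were 74.2% of the 31 genes, under the 80% set for a comparison of base content over the whole list, so that comparison is void and nothing is read from the 2 medians. No methylation was measured here.

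Several of the 31 genes encode membrane transporters, receptors and channels. Abcb1a, encoding the drug efflux pump P-glycoprotein of the blood-brain barrier, had 118, 108 and 222 reads in the wildtype cultures and 5, 2 and 1 reads in the mutant cultures. This was a level of 12.2 ± 2.83 CPM (SD, n = 3) and a 50.3-fold difference (95% counting interval 25.3 to 117). Its neighbour and near copy Abcb1b, 49.6 kb away, was present in both groups, at 18.1, 20.2 and 20.7 CPM in wildtype cultures and 32.3, 7.78 and 39.9 CPM in mutant cultures, and the groups overlapped (log2 fold change 0.44, SE 0.55, edgeR adjusted p = 0.881). How reads shared by the 2 copies were assigned could affect both counts. Slc18b1, a vesicular polyamine transporter, had 146, 108 and 143 reads in wildtype cultures and 0, 4 and 0 in mutant cultures, and its wildtype level was among the steadier ones at 11.2 ± 1.44 CPM (SD, n = 3).

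Gpr30, now Gper1, the G protein-coupled oestrogen receptor, had 97, 201 and 46 reads in wildtype cultures and 0, 2 and 1 in mutant cultures. Its wildtype cultures spread widely, at 8.48, 20.1 and 3.2 CPM. Gpr30 overlaps 3110082I17Rik on the other strand over its whole length of 4650 bases, and that gene had reads in all cultures. Glrb, the β subunit of the glycine receptor, had 17, 24 and 142 reads against 3, 2 and 2. Lrp4, a receptor for agrin at the neuromuscular junction, had 18, 20 and 31 reads against 1, 2 and 2, a 12.4-fold difference (95% counting interval 5.07 to 39.4). These 3 receptors ranged from steady to far apart among the wildtype cultures, and none exceeded 3 reads in a mutant culture. The channel subunit Kcng3, the lipid flippase Atp8b5 and the calcium channel adaptor Stac2 were close to the lower limit, with 11 to 21 reads in each wildtype culture.

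Known partners of LRP4 and of the glycine receptor had other patterns. Agrn, the ligand of LRP4, had 9028, 7487 and 2634 reads in the wildtype cultures and 4581, 1353 and 5197 in the mutant cultures, and the groups overlapped. Gphn, encoding gephyrin, which anchors glycine receptors through the β subunit, ran the other way from Glrb, with 2, 0 and 2 reads in wildtype cultures and 408, 301 and 402 reads in mutant cultures. The partners were picked after the silent genes were known, and Gphn stands out after its values were seen, so no test result is given for Agrn or Gphn.

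Genes of the cytoskeleton and its membrane links formed another group. Sspn, encoding sarcospan of the dystrophin glycoprotein complex, had 214, 173 and 527 reads in wildtype cultures and 0, 0 and 4 in mutant cultures, a 205-fold difference (95% counting interval 79.9 to 755). Other members of that complex were present in all cultures: Dag1 at 173 to 206 CPM in wildtype cultures and 243 to 337 CPM in mutant cultures, and Sgcb at 25.9 to 39.9 CPM and 31 to 42.4 CPM. Nefl, the light neurofilament chain, had 67, 55 and 78 reads against 1, 0 and 0, and at 5.59 ± 0.231 CPM (SD, n = 3) it varied little among the wildtype cultures. Nefm, the next chain of the same filament, had no read in any culture. It overlaps Nefl on the other strand over 5233 bases, and how reads there were assigned could affect both counts. Of 3 tested neural marker genes, Ncam1 and Stmn2 were lower, with log2 fold changes of -3.66 (SE 1.34, edgeR adjusted p = 0.416) and -4.31 (SE 1.67, edgeR adjusted p = 0.447). Without wildtype culture C their log2 fold changes were -1.98 and -1.82, and neither was past both thresholds. Stmn2 had 273 CPM in wildtype culture C and 15.8 and 21.5 CPM in cultures A and B, and 4 of the 14 neural markers were at 0 everywhere. The summed level of the 14 neural markers was 68.8, 63.0 and 624 CPM in wildtype cultures and 158, 423 and 157 CPM in mutant cultures, and its part in the result for Nefl was not tested.

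Signalling and ubiquitin enzymes were also among the 31 genes. Nrk, a kinase of the germinal centre kinase family, had 143, 63 and 175 reads in wildtype cultures and 0, 0 and 1 in mutant cultures, a 342-fold difference (95% counting interval 61.1 to 13600). Stambpl1, a deubiquitinase of lysine 63-linked chains, had 20, 17 and 147 reads against none. Its relative Stambp had 23.5 to 35.1 CPM in wildtype cultures and 25.8 to 29.2 CPM in mutant cultures, so the ranges overlapped. Nos1ap, an adaptor of neuronal nitric oxide synthase, had 45, 36 and 42 reads against 0, 0 and 4. Dusp2, a nuclear phosphatase of ERK, had 123, 128 and 10 reads against 5, 3 and 5, and lay on both limits at once. Aff2, a nuclear factor of the AF4 and FMR2 family, had 49, 44 and 145 reads against 2, 0 and 2, while 3 tested relatives had log2 fold changes from -0.29 to 0.10. Nol4, a nuclear protein, had 46, 43 and 39 reads against 1, 2 and 1.

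Secreted and matrix proteins made up a smaller group. Efemp1, encoding fibulin-3 of the extracellular matrix, had 45, 38 and 866 reads in the wildtype cultures and 0, 4 and 0 in the mutant cultures. Culture C thus held most of its reads, and its wildtype mean of 22.7 CPM came with an SD of 32.5 (n = 3). Fbln2, encoding another fibulin, was lower in the mutant cultures (log2 fold change -5.25, SE 1.58, edgeR adjusted p = 0.303) and had the same uneven spread, at 14.5, 20.3 and 279 CPM in the wildtype cultures. Hgf, the ligand of the receptor MET, had 34, 42 and 13 reads against none, a difference of at least 9.59-fold from the floor of 3 reads per culture. Met itself had 478, 478 and 3899 reads in wildtype cultures and 801, 607 and 853 reads in mutant cultures, so the receptor's transcript was present in both groups. Masp1, a serine protease of the lectin pathway of complement, had 17, 27 and 13 reads against 1, 0 and 0.

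Prrg3, a transmembrane protein with a vitamin K-dependent Gla domain, had 85, 86 and 209 reads in wildtype cultures and none in mutant cultures. Its relatives Prrg1, Prrg2 and Prrg4 were tested and had log2 fold changes of 0.32 (SE 0.33), -0.41 (SE 0.26) and 0.76 (SE 0.45), with edgeR adjusted p values of 0.84, 0.70 and 0.671. Of 8 other tested Gla proteins none was lower and Gas6 was higher (log2 fold change 1.12, SE 0.46, edgeR adjusted p = 0.487).

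Some members have close copies elsewhere in the genome. Hmga2-ps1 is a pseudogene of the chromatin protein gene Hmga2 and had 103, 106 and 470 reads in wildtype cultures and none in mutant cultures. Hmga2 had 444, 484 and 5550 reads in the wildtype cultures and 3181, 1061 and 886 in mutant cultures, so the mutant cultures had Hmga2 reads and no pseudogene reads. Hmga2-ps1 lies within Sdccag8, which had 310 to 466 reads in the wildtype cultures and 357 to 394 in the others. H2-Q5, an MHC class I gene annotated as a polymorphic pseudogene, had 243, 164 and 15 reads against 3, 1 and 1. H2-Q4, 8.84 kb away, had 226, 182 and 23.0 CPM in wildtype cultures and 118, 55.0 and 149 CPM in mutant cultures. Both H2-Q genes were lowest in wildtype culture C among the wildtype cultures.

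Gstm4, a glutathione S-transferase of the mu class, had 19, 20 and 42 reads against none, while its neighbours in the Gstm cluster were present in both groups. Gstm2 was higher in mutant cultures (log2 fold change 2.11, SE 0.82, edgeR adjusted p = 0.447), Gstm5 was lower (log2 fold change -1.29, SE 0.37, edgeR adjusted p = 0.284), and Gstm1 had a log2 fold change of -1.20 (SE 0.62, edgeR adjusted p = 0.614). Genes with near-identical copies are uncertain to the extent that reads matching more than 1 copy were assigned or dropped in counting.

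**Figure D2:**
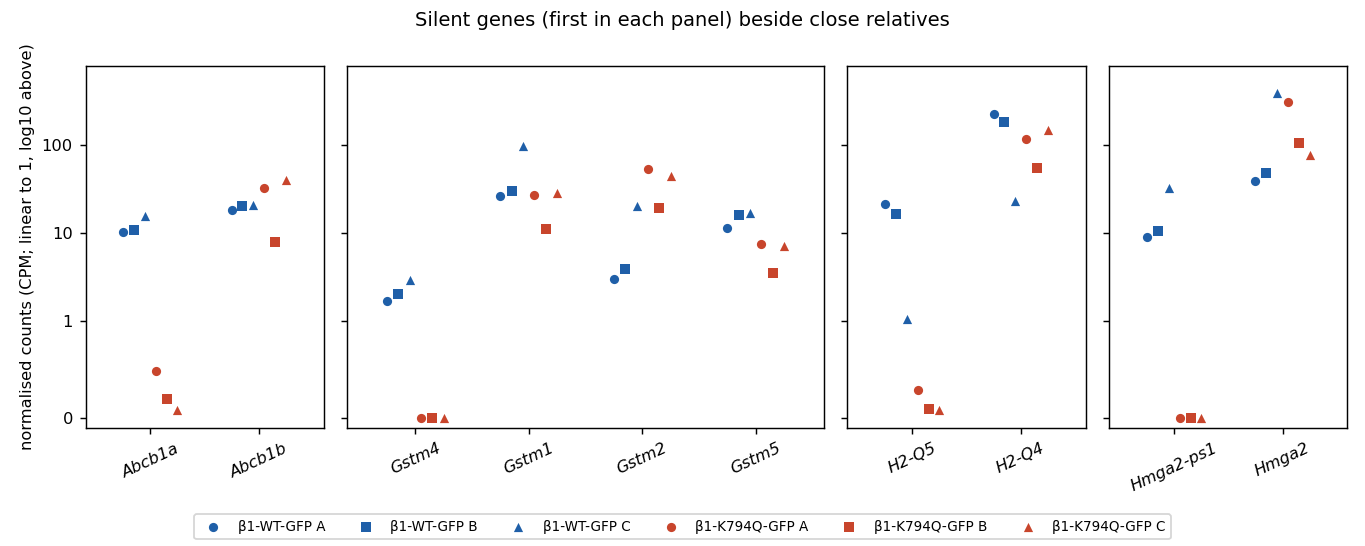
Normalised counts (CPM, linear to 1 and logarithmic above) of 4 silent genes, first in each panel, and of close relatives in β1-WT-GFP (blue) and β1-K794Q-GFP (red) cultures. Abcb1a, Gstm4, H2-Q5 and Hmga2-ps1 sat below 0.5 CPM in all β1-K794Q-GFP cultures, while Abcb1b, Gstm1, Gstm2, Gstm5, H2-Q4 and Hmga2 sat above 3 CPM there.

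The other 5 genes, Gm7694, Gm14139, Tmem255a, Ccdc166 and Fam13a, had 10 to 61 reads in each wildtype culture. Of these, Gm7694 shares 3665 bases with Nos1ap on the same strand, so reads there could have been counted for either gene or for neither, and the genes are not separate observations. Per kilobase of exon, the 30 genes with an exonic length had mean wildtype levels from 0.171 CPM per kb (Atp8b5) to 13 CPM per kb (Prrx1). Their median was 1.05 CPM per kb against 7.9 CPM per kb over 11521 tested genes, and only Prrx1, Efemp1 and H2-Q5 lay above that median. The silent genes were therefore mostly of low abundance in β1-WT-GFP cells, but the limits that chose them favour such genes. A gene with many wildtype reads needs a larger drop to reach at most 5 reads in each mutant culture. The comparison with all tested genes thus describes the choice, and how much of the low abundance it set was not tested. The median span of the 31 genes was 55.9 kb against 24.1 kb for 10986 genes with at least 10 reads in each wildtype culture, and the median exonic length was 4825.5 bases for 30 genes against 4606.5 bases for 10950.

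The wildtype cultures did not agree on all of the 31 genes. Cultures A and B were within 2-fold of each other for all but 1 gene, Gpr30. Culture C was at least 2-fold above the mean of A and B for 7 genes, of which Efemp1 (15.6-fold), Stambpl1 (5.93-fold) and Glrb (5.09-fold) were the farthest. It was at least 2-fold below for another 7, among them H2-Q5, Dusp2, Gpr30, Hgf and Prrx1, at 0.0555, 0.0591, 0.224, 0.252 and 0.30 times the mean of A and B. These 14 genes were 45.2% of the 31, and 22.3% of 11012 tested genes with at least 10 reads in each wildtype culture were likewise at least 2-fold apart. The low genes carry more counting error than most, and its part in the difference was not tested.

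**Figure D3:**
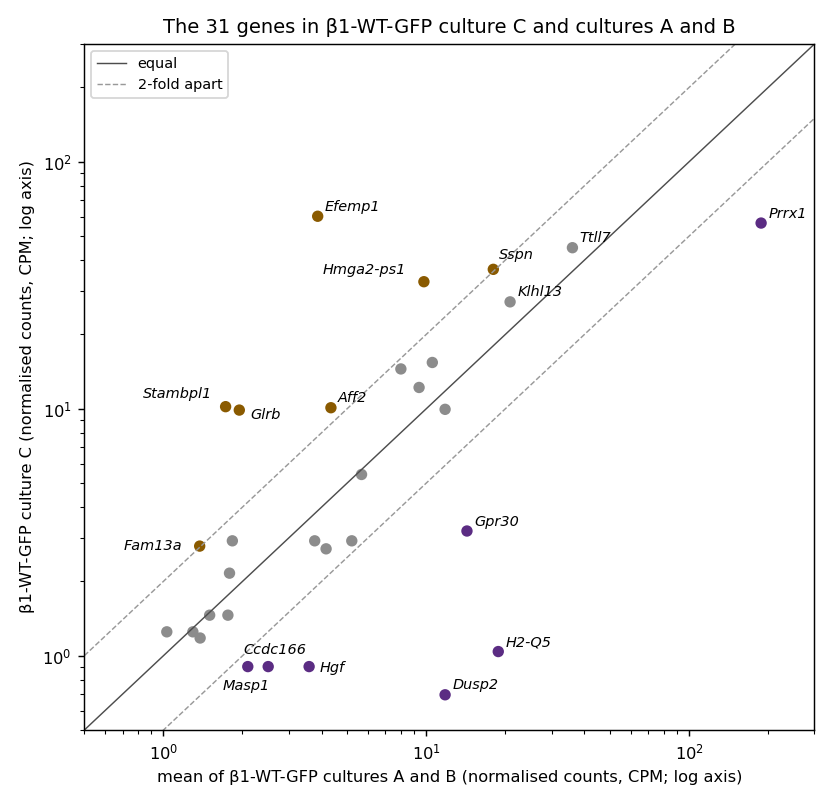
Level of each of the 31 genes in β1-WT-GFP culture C (vertical) against the mean of A and B of the same group (horizontal), both as normalised counts in CPM on log axes. The solid line marks equal levels and the dashed lines a 2-fold difference, with 7 genes at or above the upper dashed line (brown) and 7 at or below the lower one (purple).

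The genes were also chosen on 5 cultures, and the one left out was then looked at. Genes that meet the limit there are always the same 31, so the shares describe the choice and do not support it independently. For mutant cultures the background genes were not chosen for few reads in the other mutant cultures, so the shares compared are not alike. On the 5 cultures without mutant culture A, 41 genes met the limits, and 31 of them (75.6%) had at most 5 reads in culture A, against 1.04% of all 11024 genes with at least 10 reads in each wildtype culture. Without mutant culture B, 31 of 67 genes (46.3%) had at most 5 reads in it, against 2.31%, and without mutant culture C, 31 of 57 (54.4%), against 0.835%. Many genes silent in 2 mutant cultures were thus not silent in the one left out. Fkbp10, a collagen chaperone, had 511 reads in mutant culture B and none in A or C, and Il13ra2, a decoy receptor for interleukin 13, had 4 and 0 reads in cultures A and B and 1121 in culture C. Leaving out a wildtype culture in the same way gave 36 genes for culture A, of which 31 (86.1%) had at least 10 reads in it against 99.5% of genes in the background, and 41 for culture B, of which 31 (75.6%) did against 98.7%. For culture C it gave 50 genes, of which 31 (62.0%) did against 98.1%, and Cnnm1 went from 62 and 42 reads in cultures A and B to 0 in culture C.

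The limits themselves cut through a continuous range of counts. Abcb1a, Dusp2, Fam13a and Gm7694 lay on a limit. Of the 10 genes that missed by 1 read, Ankrd29 had 2, 2 and 1 reads in mutant cultures and 22, 9 and 52 in wildtype cultures, Arhgap44 had 5, 0 and 6 against 127, 127 and 254, and Fah had 3, 5 and 6 against 10, 12 and 38.

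The 31 genes were spread over 15 chromosomes. The X chromosome held 5 of them (16.1%), Klhl13, Tmem255a, Aff2, Prrg3 and Nrk, and 3.21% of all genes with at least 10 reads in each wildtype culture and a known position. Chromosome 1 held 4 (12.9%) against 5.58%, among them the overlapping Gm7694 and Nos1ap, which are not separate observations. The closest pair after the overlapping Gm7694 and Nos1ap, Aff2 and Prrg3 on the X chromosome, were 2090 kb apart. The other genes of the X chromosome were called about as often as all tested genes. Of 366 tested, 7 were lower (1.91%) and 15 higher (4.10%), against 1.71% and 3.48% of all tested genes, and their median log2 fold change was 0.02.

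Within 500 kb of the 31 genes, 263 other genes were tested. Of these neighbours 7 were lower (2.66%) and 11 higher (4.18%), against 1.71% and 3.48% of all tested genes. Their median log2 fold change was -0.02, the same as over all tested genes. Beside Prrx1, Gorab had a log2 fold change of -0.33 (SE 0.23) and Kifap3 one of -0.25 (SE 0.19), with edgeR adjusted p values of 0.739 and 0.76. Beside Ttll7, Prkacb had a log2 fold change of 0.10 (SE 0.19, edgeR adjusted p = 0.923), and beside Klhl13, Wdr44 had 0.07 (SE 0.22, edgeR adjusted p = 0.962). A lower neighbour was found for 6 of the 31 genes, and 2, Hgf and Nol4, had no tested neighbour.

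Among the neighbours, only Unc13b, a synaptic vesicle priming protein gene 2.29 kb from Atp8b5, was past an adjusted p of 0.05. It had 20.7, 21.5 and 18.9 CPM in wildtype cultures and 0.769, 0.394 and 1.55 CPM in mutant cultures, without overlap (log2 fold change -4.46, SE 0.50, edgeR adjusted p = 0.0474). Leaving out any 1 culture kept its log2 fold change between -5.10 and -4.11. Pdgfa, the growth factor PDGF-A, lay 426 kb from Gpr30 and was lower by the 2 unadjusted thresholds (log2 fold change -2.44, SE 0.70, edgeR adjusted p = 0.287). Ier3, Flot1 and Gabre were lower in the same way, with log2 fold changes of -1.62 (SE 0.39), -1.61 (SE 0.32) and -1.49 (SE 0.59), and Gabre kept both thresholds in 1 of 6 leave-one-out fits. In the other direction, the homeobox gene Rhox5, 388 kb from Tmem255a on the X chromosome, had 93.3, 0.689 and 66.9 CPM in the mutant cultures and 1.10 to 1.40 CPM in wildtype cultures (log2 fold change 5.35, SE 1.5, edgeR adjusted p = 0.273). Culture B therefore lay below the wildtype cultures. Psrc1, Gpihbp1, Gstm2 and 5430416O09Rik followed among the higher neighbours, with log2 fold changes of 3.27 (SE 0.87), 2.58 (SE 0.80), 2.11 (SE 0.82) and 2.04 (SE 0.59).

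**Figure D4:**
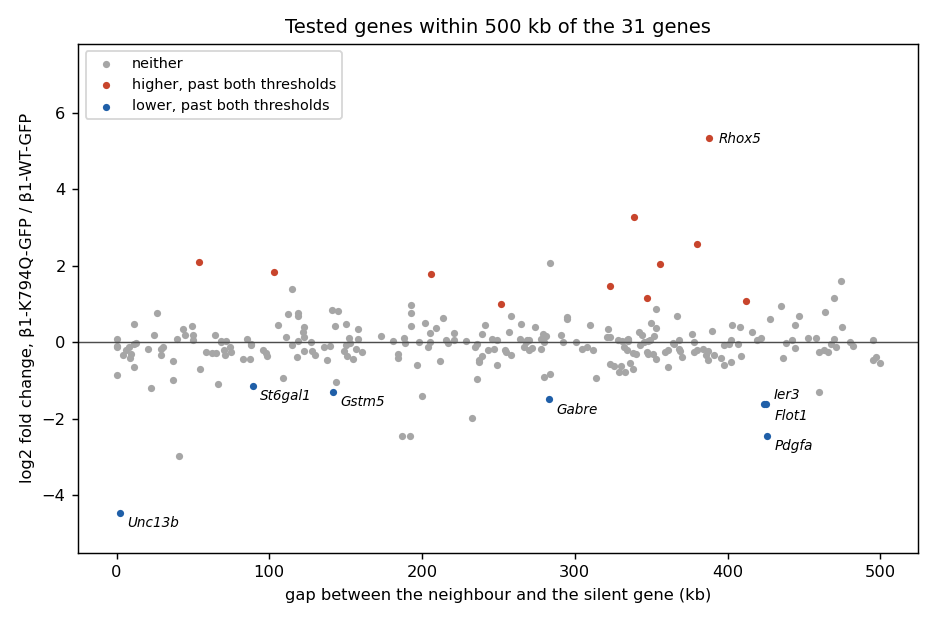
Log2 fold change (β1-K794Q-GFP over β1-WT-GFP, vertical) of the 263 tested genes within 500 kb of a silent gene, against the gap in kb between the 2 genes. Genes past a fold of 2 and an unadjusted p of 0.05 are blue (7 lower, named) or red (11 higher), and Unc13b stands lowest, at the smallest gap of the blue points.

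On distal chromosome 1 many other genes were below 0 as well. Prrx1, Gm7694, Nos1ap and Hmga2-ps1 lie within 13.6 Mb of each other there. Between the outer 2, 79 other genes were tested, with a median log2 fold change of -0.51, and 84.8% of them were below 0 against 51.6% of all tested genes. The median log2 ratio of these 79 genes to the wildtype mean was -0.53, -0.46 and -0.63 in the mutant cultures, and 0.01, 0.02 and 0.01 in the wildtype cultures. The shift was thus present in each mutant culture. Only Uck2, 1.27% of the 79, was past both thresholds as lower (log2 fold change -1.04, SE 0.41, edgeR adjusted p = 0.453), and without wildtype culture C it had -0.49. Rgs7 and Slc19a2 were higher there, with log2 fold changes of 3.43 (SE 0.86, edgeR adjusted p = 0.22) and 2.13 (SE 0.54, edgeR adjusted p = 0.228). Over the 566 tested genes elsewhere on chromosome 1 the median was -0.21. Of these 566, 18 were lower, against 199 of all 11608 tested genes. They include genes on both flanks of the interval, so their median may hold part of the same shift. Prdx6 (log2 fold change -2.08), before Prrx1, and Psen2 (-1.47), after Hmga2-ps1, were lower, while Ephx1 (1.47), after Hmga2-ps1, was higher. The interval is set by the silent genes, so the ends of the shift were not determined. Medians over the 25 nearest tested genes were -0.43 for Ttll7, from -0.62 to -0.52 for the 4 genes of chromosome 1, and from -0.19 to 0.29 for the other 26 genes. The part of this shift in the counts of the silent genes was not tested.

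**Figure D5:**
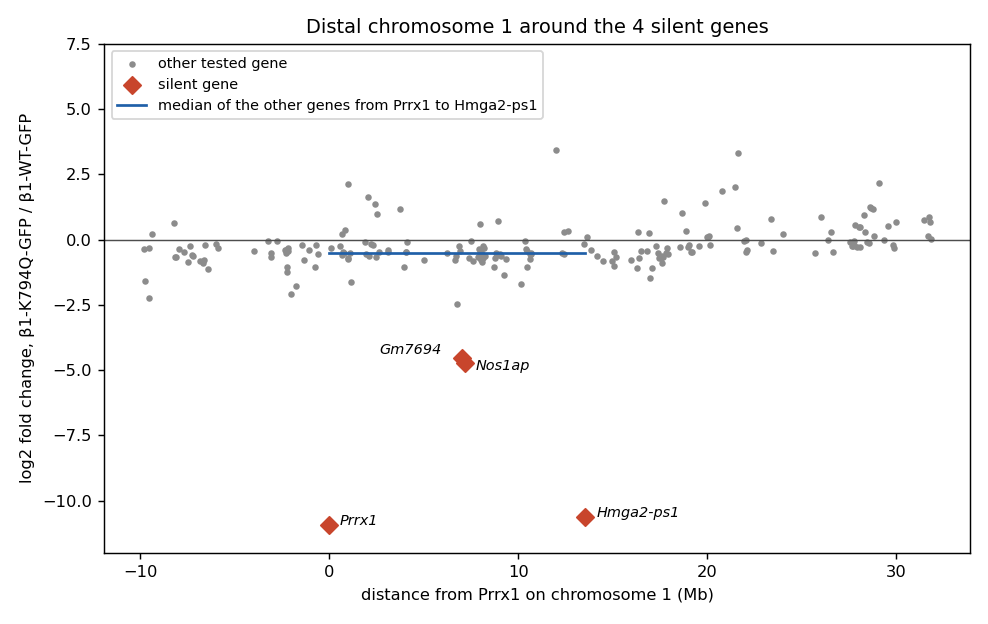
Log2 fold change (β1-K794Q-GFP over β1-WT-GFP) of tested genes on chromosome 1 from 10 Mb before Prrx1 to the chromosome's end, against the distance from Prrx1 in Mb. The line marks the median of -0.51 over the 79 other genes between Prrx1 and Hmga2-ps1, and the 4 silent genes (red) lie far below it, although the fitted value of Hmga2-ps1, which had no read in the mutant cultures, depends on the prior count.

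Genes with related names were called about as often as all tested genes. The symbols of 22 silent genes share a root with other genes (such as Klhl, Slc or Tmem, which for some roots is a naming convention rather than a shared sequence), and 716 such genes were tested. Of these 10 were lower (1.40%) and 26 higher (3.63%), against 1.71% and 3.48% of all tested genes. Their median log2 fold change was 0.00. The lowest was Fam73a (log2 fold change -3.19, SE 0.75, edgeR adjusted p = 0.19) and the highest Atp8b1 (log2 fold change 5.04, SE 1.66, edgeR adjusted p = 0.357), a flippase related to Atp8b5 that had 37.4, 0.0985 and 78.6 CPM in the mutant cultures and 1.10 to 1.22 CPM in wildtype cultures. Mutant culture B thus had less Atp8b1 than any wildtype culture. Nos2, inducible nitric oxide synthase, was likewise higher (log2 fold change 4.53, SE 1.27, edgeR adjusted p = 0.273).

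Markers of other cell types were looked at because several silent genes are known from mesenchyme or neurons. Of 13 other tested mesenchymal markers, Foxc2 (log2 fold change -2.33, SE 0.45, edgeR adjusted p = 0.136) and Fbln2 were lower and none was higher. Of the 32 markers, 9 were at 0 in every culture, among them Twist1, Twist2, Dcn, Lum, Postn and Thy1, and Col1a1 did not exceed 5.91 CPM. Others were abundant in all 6 cultures, with Vim at 1380 to 4680 CPM, Fn1 at 172 to 5830 CPM, S100a4 at 215 to 815 CPM and Zeb1 at 213 to 313 CPM. The summed level of the 32 markers was 2530, 2880 and 12400 CPM in the wildtype cultures and 4700, 4970 and 3100 CPM in the mutant cultures, so the groups overlapped and culture C stood highest. Of 9 other tested genes tied to Prrx1 in mesenchyme, a list that also holds Hgf, none was lower or higher. The 14 epithelial markers summed to at most 1.53 CPM in any culture. Of the 14 smooth muscle and pericyte markers and the 14 haematopoietic markers, 1 and 2 were tested, and none was past both thresholds.

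Genes of DNA methylation and silencing were listed since they act on silent genes in general. Of 34 tested, Tet1, which encodes an enzyme that oxidises methylated cytosine, was lower and none was higher. Tet1 had 89, 69 and 98 reads in the wildtype cultures and 0, 13 and 0 in the mutant cultures (log2 fold change -4.06, SE 1.32, edgeR adjusted p = 0.35). It missed the limits for the silent genes through culture B alone. Of 28 tested imprinted genes, 1 was lower (Grb10) and 4 were higher (Peg10, Peg13, Airn and Zrsr1). The shares over all tested genes were 1.71% lower and 3.48% higher. Grb10 (log2 fold change -1.88) and Zrsr1 (11.12) were past both thresholds in all 12 other fits. Peg10, Peg13 and Airn were so in 6, 7 and 7 of them. Without mutant culture B the log2 fold change of Peg10 was 0.26 and that of Peg13 1.29. Of 10 tested genes that escape X inactivation or control it, 1 was higher, the noncoding RNA gene Ftx (log2 fold change 2.10, SE 0.51, edgeR adjusted p = 0.208). Of 3 tested Y-linked genes none was past both thresholds. The listed Y-linked genes summed to 377, 396 and 291 CPM in the wildtype cultures and 319, 486 and 292 CPM in the mutant cultures.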

How the data were processed

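The authors sequenced total RNA after depletion of ribosomal RNA and deposited raw counts, one value for each mouse gene symbol and culture. The submitters' processing notes name bcl2fastq 2.20.0, STAR 2.7.4a, HTSeq 0.9.1, edgeR 3.38.4 and the build mm10, with no annotation or strand setting. Silent genes had at most 5 reads in each β1-K794Q-GFP culture and at least 10 in each β1-WT-GFP culture. The members, the gene lists and the tests were chosen with earlier results of these data known.

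The counts were fitted in R 4.3.3 with edgeR 4.0.16 (filterByExpr, 11608 genes, TMM, quasi-likelihood F-test, two-sided), and adjusted p values are Benjamini-Hochberg over all tested genes. The SE of a log2 fold change is its absolute value divided by the square root of the F statistic. It is thus derived from the test and not independent of its p. Levels are CPM with TMM, and totals were 9589826 to 15287191 reads. Folds of silent genes are ratios of summed reads per scaled library, with exact 95% intervals for counting error or, for a count of 0, a floor of 3 reads per culture. "Lower" and "higher" mean past both thresholds: a fold of 2 or more, and p (unadjusted) no higher than 0.05. Genes were placed by GENCODE M21 (GRCm38), 21777 by symbol and 1259 by synonym, and 211 by RefSeq.

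Named genes were the 20 silent genes with the highest lowest β1-WT-GFP CPM, those in a list, those within 1 Mb of another, 3 on either side of the limits, and called neighbours and name relatives (the 5 largest folds each way). Partners, Gstm1, Gstm5, H2-Q4, called list genes, single cell type markers and genes lost in 1 culture were added after values were seen. The fit was tested on simulated data. Alternatives were no filter, a minimum of 10 reads in 2 cultures, RLE, DESeq2 1.42.0, the likelihood ratio test, a block, other limits and windows, and leaving out each culture.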

Additional observations from a re-analysis of the deposited data

How the results depend on the processing

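The log2 fold changes of the 27 fitted silent genes stayed below 0 and past the threshold in all 323 values from the 12 other fits, between -11.78 and -2.65, a direction that the choice of genes fixes. Limits of at most 2 and at least 20 reads left 10 genes, and limits of 0 and at least 10 left 8. Leaving out 1 culture at a time gave 36 to 67 genes, the most when mutant culture B was left out, with 57 for mutant culture C and 50 for wildtype culture C. Leaving out a culture removes a limit, so each of these lists holds all 31 genes and cannot be shorter. Without the filter on low counts, 326 genes were lower, as were 22 name relatives, while 40 relatives were higher. A window of 100 kb held 2 lower neighbours (3.85%) and 1 higher (1.92%), and one of 1000 kb held 20 higher (4.18%). Leaving out 1 culture at a time gave 184 to 320 lower genes and 317 to 709 higher ones, with 320 lower and 622 higher when mutant culture B was left out, and 709 higher when wildtype culture C was. It gave 6 to 12 lower and 7 to 20 higher neighbours (20 without mutant culture B, 12 lower without wildtype culture C), 9 to 19 lower and 18 to 46 higher name relatives, 2 to 14 lower X-linked genes and 5 to 10 lower listed genes. Among the called neighbours, the called list genes and the other called genes named here, 18 were past both thresholds in all 6 of these fits, while Gabre, Gas6 and Podxl were in 1 of them and Airn, Atp8b1, Gstm2, Lipa, Lst1, Peg10, Stmn2, Tgif2 and Uck2 in 2. The same-letter cultures correlated at 0.095, 0.055 and 0.095, too little to pair them, and not every culture correlated best with its own letter. With the culture letter as a replicate block, 200 genes were lower and 371 higher, including 7 and 8 neighbours, 11 and 24 name relatives, 5 lower X-linked genes and 8 lower listed genes, each within 1.5 times the count without it. What set the size of these changes was not tested. At these depths a count of 0 cannot be told from up to 3 reads per culture.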
